A study of Mus musculus with 6 samples.

Results

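The tumor necrosis factor (TNF) superfamily consists of ligands related to TNF and the receptors that bind them. Members were chosen by symbol, as the autosomal protein-coding genes of the GENCODE GRCm38 annotation whose names begin with Tnfsf or Tnfrsf together with Tnf, Lta, Ltb, Ltbr, Fas, Fasl, Cd27, Cd70 and Cd40, which gave 41 of 20780 autosomal protein-coding genes. Of these, 17 encode ligands and 24 encode receptors. H3K4me3, a histone mark of active and poised promoters, and H3K27me3, a mark deposited by Polycomb repressive complexes, were mapped by ChIP-seq in colonic organoids, epithelial cultures grown from crypts of the C57BL/6 mouse colon. The organoids were kept without TNFα (wt) or with TNFα at 40 ng/ml for 3 weeks (wt+TNFα), which asks how the inflammatory cytokine changes the chromatin of colonic epithelium. Each condition had 1 library per mark and 1 input library, so there was no replicate spread, no difference was tested, and each value below is a single measurement whose error is unknown. The labels name neither the number of animals nor of organoid lines behind a library, and the cultures hold epithelium without the immune and stromal cells in which many of these ligands are studied.

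Ligands of the family are mostly trimeric proteins anchored in the membrane of the cell that makes them, and several are shed by proteases such as Adam17. Receptors with a death domain, such as Fas and Tnfrsf1a, can recruit Fadd, Tradd and Casp8 and lead to apoptosis or, through Ripk1, to NF-κB signaling, whereas receptors without one bind Traf proteins and lead to NF-κB and MAP kinase signaling. In the intestine, TNF drives inflammation, lymphotoxins shape lymphoid tissue, and TNF-like ligands govern the survival and activation of lymphocytes.

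The H3K4me3 lists were of like size, with 17.8 Mb (wt) and 19.5 Mb (wt+TNFα) of the autosomes under peaks, whereas for H3K27me3 the figure was 101 Mb for wt and 228 Mb for wt+TNFα. Fold enrichment, the ratio of ChIP signal to the local background, was computed separately for each list, so peaks are placed by their percentile of fold enrichment within their own list, and a ratio between the conditions is read beside the same ratio at all genes. The labels give a planned depth of 40000000 reads for H3K4me3 and input and 60000000 for H3K27me3. The reporting summary gives totals that differ from these plans, with many more reads for H3K4me3 and for input in wt+TNFα than in wt. Its totals for H3K27me3 were nearly equal between the conditions. The lists also differed on the sex chromosomes, which the choice of members left out. H3K27me3 covered 0.597 Mb of chromosome X in wt (247 peaks) and 74.7 Mb in wt+TNFα (11578 peaks), and the H3K4me3 peaks on chromosome Y numbered 3 for wt and 0 for wt+TNFα. The labels used here do not give the sex of the cultures, and any difference of sex or animal of origin between the conditions cannot be told apart from TNFα in the values below. The labelled cell type was checked with markers. Promoters of 10 of 10 epithelial markers in wt and 9 of 10 in wt+TNFα had an H3K4me3 peak, the exception being Krt20. None of 10 leukocyte markers and none of 10 fibroblast and endothelial markers had one in either condition.

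Promoters of the family, taken as 1000 bp on each side of every annotated transcript start, were read against the same windows of all genes. An H3K4me3 peak overlapped the promoters of 14 of 41 members in wt (34.1%, against 51.8% of all 20780 genes) and 18 in wt+TNFα (43.9%, against 52.5%). H3K27me3 peaks were found at 9 of 41 in wt (22.0%, against 22.3%) and at the same 9 in wt+TNFα (22.0%, against 27.5%). With H3K27me3 peaks of −log10 q of at least 2, the counts were 6 in wt (14.0% of all genes) and 8 in wt+TNFα (20.1%). Both marks lay within the promoter windows of 1 member, Tnfrsf9, in each condition, against 5.40% of all genes in wt and 6.71% in wt+TNFα. That member was 1 of the 14 with H3K4me3 in wt (7.14%, against 10.4% of 10760 genes) and 1 of the 18 in wt+TNFα (5.56%, against 12.8% of 10917 genes). The remaining 19 members in wt (46.3%, against 31.3% of all genes) and 15 in wt+TNFα (36.6%, against 26.7%) had neither mark. H3K4me3 lay at 11 of 24 receptors and 3 of 17 ligands in wt, and at 13 and 5 in wt+TNFα.

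**Figure D1:**
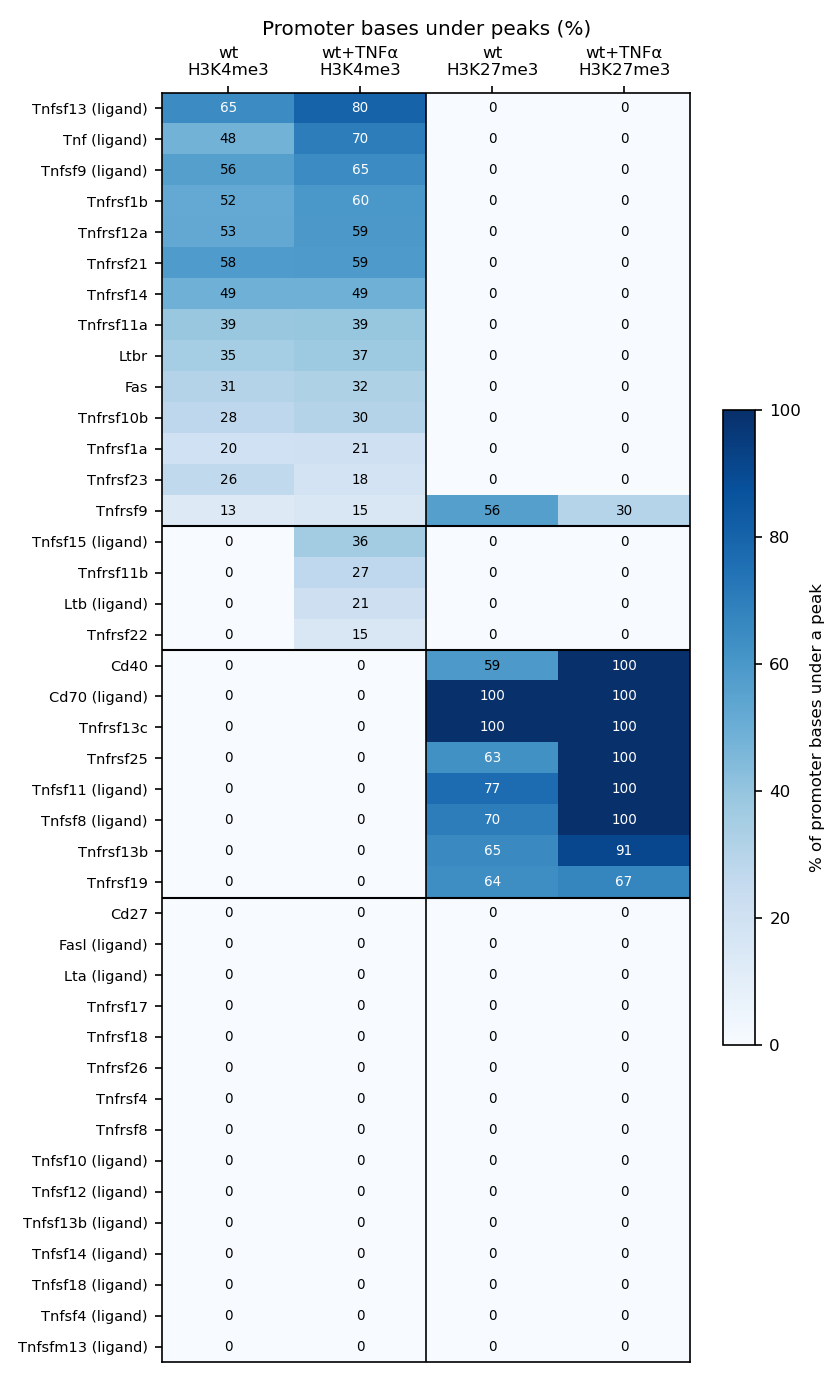
Share of promoter bases (%) under peaks of each of the 4 lists for the 41 members, in rows grouped by mark, with ligands labelled. The 4 members of the second block (Tnfsf15, Tnfrsf11b, Ltb and Tnfrsf22) had H3K4me3 in wt+TNFα alone, and the 15 members of the last block had no peak of either mark.

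The 4 differences in peak calls between the conditions were gains of H3K4me3 with the lists as deposited, and this direction did not hold when the lists were cut to equal covered length. Ltb, Tnfsf15, Tnfrsf11b and Tnfrsf22 had an H3K4me3 peak in wt+TNFα alone, which is 4 of 41 members (9.76%) against 1.50% of all genes. Among genes with no H3K4me3 peak in wt, this was 4 of 27 members (14.8%) against 3.10% of 10020 genes. With equal covered length, Ltb alone kept the call (0.231% of all genes), while Fas and Tnfrsf23 had H3K4me3 in wt alone (4.23% of all genes) and Tnfsf8 had H3K27me3 in wt alone (5.16%). With the stronger peaks of each list none of the 4 kept the call. With the lists as deposited, no member had H3K4me3 in wt alone (0.741% of all genes), and all 14 members with a wt peak kept it (98.6% of 10760 genes did). For H3K27me3, 0 members had a peak in wt+TNFα alone (6.48% of all genes) and 0 in wt alone (1.28%). The first count depended on the setting. It was 2 with −log10 q of at least 2 (Cd40 and Tnfrsf13b, against 6.81%) and 2 with promoters of 2000 bp (Tnfrsf26 and Tnfsf13b, against 7.50%). With 1 start per gene it was 1 (Tnfrsf13b, against 6.15%), and the remaining settings left it at 0. Of the 32 members without H3K27me3 in wt, 0 had it in wt+TNFα (8.34% of 16143 genes), and of the 9 with it, 0 were without it (5.71% of 4637 genes).

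Among the ligands with an H3K4me3 peak in both conditions, the peak differed most in width and fold enrichment at Tnf, the founding cytokine of the family and the agent added to the cultures. Tnf (ENSMUSG00000024401.14, chr17:35199381-35202007, minus strand) had an H3K4me3 peak 1247 bp wide and enriched 9.85-fold in wt, and one 3217 bp wide and enriched 32.2-fold in wt+TNFα. The −log10 q of the peak was 48.8 in wt and 217 in wt+TNFα. The peak thus went from the 14.7th to the 64.0th percentile of fold enrichment in its own list. Among 10606 genes with an H3K4me3 peak in both conditions, the width ratio of 2.58 was at the 99.6th percentile, the fold-enrichment ratio of 3.27 at the 99.8th, and the rise of 49.4 percentile points at the 99.5th. In wt the peak lay within the gene and stopped 40 bp short of the nearest start, covering 47.5% of the gene, and in wt+TNFα it reached 447 bp farther upstream and 1523 bp farther downstream and covered 100% of the gene and the start. The 250 bases before the RefSeq start (chr17:35202008-35202257 of GRCm38.p6, minus strand) are shown because 0 of them lay under the wt peak and all 250 under the wt+TNFα peak. Capitals mark CpG dinucleotides in this and the following sequences, which are from RefSeq and read 5′ to 3′.
Tnf: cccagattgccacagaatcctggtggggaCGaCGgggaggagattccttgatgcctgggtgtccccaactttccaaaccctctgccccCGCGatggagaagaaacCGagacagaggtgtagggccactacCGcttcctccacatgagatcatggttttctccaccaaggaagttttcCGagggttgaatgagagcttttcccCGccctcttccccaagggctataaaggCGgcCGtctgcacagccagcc
The sequence holds 10 CpG, against a median of 6.00 over 32851 mouse promoter sequences of that length. No H3K27me3 peak lay near Tnf, the nearest being 91341 bp away in wt and 86826 bp in wt+TNFα.

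Tnf is flanked by the genes of the lymphotoxins, Ltb and Lta, within 10.9 kb. Ltb (ENSMUSG00000024399.5, chr17:35194439-35196320, plus strand) encodes the membrane subunit of the lymphotoxin heterotrimer that binds Ltbr. Its wt+TNFα H3K4me3 peak spanned 1411 bp at chr17:35195163-35196573, enriched 18.7-fold, with a −log10 q of 93.5. In wt there was a smaller peak of 523 bp, enriched 8.32-fold, at chr17:35195702-35196224, inside the gene but outside the promoter windows. In both conditions this peak also lay in the promoter window of an annotated miRNA gene, Mir6973a. The call of a gain at Ltb therefore followed from the widening of a peak in the body of the gene, of which 27.8% was covered in wt and 61.5% in wt+TNFα. The wider peak began 537 bp downstream of the nearest start and did not cover any of the 3 starts. Ltb was called in 4 of 7 settings for promoter size, overlap and peak strength. The 250 bases before its RefSeq start (chr17:35194257-35194506 of GRCm38.p6, plus strand), which reach into the annotated gene, are shown for comparison with those of Tnf. They lay under no peak of any list.
Ltb: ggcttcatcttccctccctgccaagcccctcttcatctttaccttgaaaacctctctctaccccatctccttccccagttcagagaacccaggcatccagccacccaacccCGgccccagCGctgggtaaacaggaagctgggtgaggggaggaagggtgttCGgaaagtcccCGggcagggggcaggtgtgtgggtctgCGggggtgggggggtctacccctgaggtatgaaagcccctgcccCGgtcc
Lta, which encodes the secreted lymphotoxin α, had no peak of either mark over its promoter or gene, although the upstream edge of the Tnf peak came within 754 bp of the gene in wt+TNFα and 1201 bp in wt. Outside the 3 genes, the wt+TNFα list had an H3K4me3 peak of 558 bp (fold enrichment 5.99) at chr17:35185944-35186501, beyond Ltb, and one of 362 bp (fold enrichment 5.06) at chr17:35210165-35210526, beyond Lta, and wt had none at either place.

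**Figure D2:**
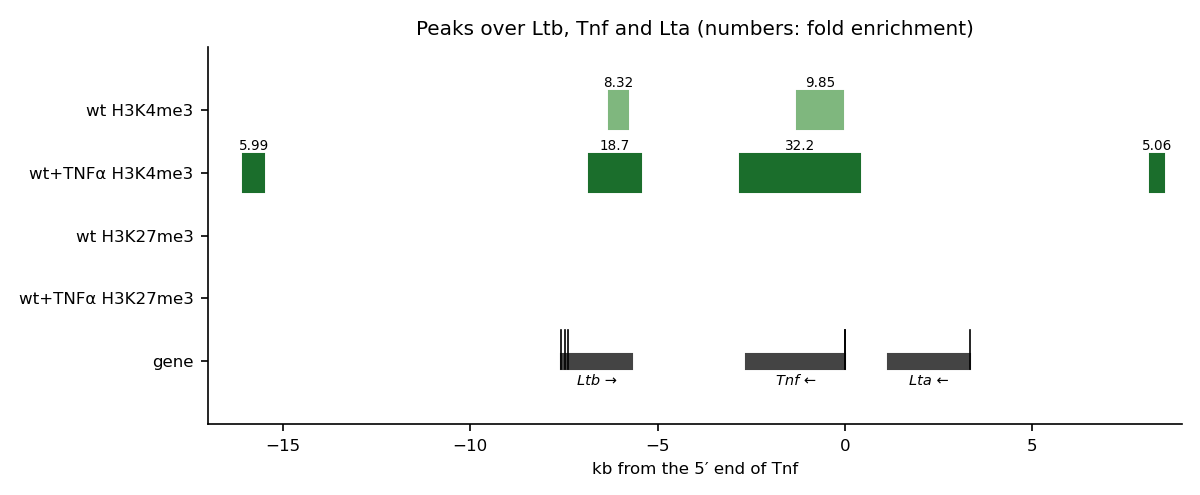
H3K4me3 (green) and H3K27me3 peaks of each list over Ltb, Tnf and Lta, by distance in kb from the 5′ end of Tnf, with fold enrichment above each peak, genes in grey with arrows for their strand, and ticks at transcript starts. The Tnf peak was 1247 bp in wt and 3217 bp in wt+TNFα, and no H3K27me3 peak lay in the interval.

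Tnfsf15 (ENSMUSG00000050395.8, chr4:63727084-63745113, minus strand) encodes TL1A, the ligand of Tnfrsf25 and a product of a susceptibility locus for inflammatory bowel disease. It had an H3K4me3 peak over its only start in wt+TNFα, 719 bp wide and enriched 7.87-fold, with a −log10 q of 23.9, at the 9.27th percentile of its list. In wt the nearest H3K4me3 peak was 166856 bp from the gene. The RefSeq start lies downstream of the annotated start, inside the gene. Of the 250 bases before it (chr4:63745060-63745309 of GRCm38.p6, minus strand), some of which lie within the annotated gene, 166 lay under the wt+TNFα peak. They are shown as the promoter of a ligand with a new peak and few CpG, 3 in all.
Tnfsf15: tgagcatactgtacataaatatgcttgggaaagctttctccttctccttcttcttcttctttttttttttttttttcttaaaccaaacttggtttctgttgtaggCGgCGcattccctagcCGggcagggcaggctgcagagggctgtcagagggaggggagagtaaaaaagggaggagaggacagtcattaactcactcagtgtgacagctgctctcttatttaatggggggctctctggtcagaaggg
The peak was weak for its list, and the call was lost when only the stronger peaks of each list (−log10 q above its median) were kept and when the lists were cut to equal covered length.

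A pair of other ligands had H3K4me3 in both conditions. Tnfsf13, which encodes APRIL, a survival factor for plasma cells, had a peak of 2128 bp (fold enrichment 16.7) in wt and 2867 bp (fold enrichment 16.5) in wt+TNFα, and its promoter coverage was 64.7% in wt and 80.4% in wt+TNFα. Tnfsf9, which encodes the 4-1BB ligand, had a peak of 1128 bp (fold enrichment 23.6) in wt and of 1297 bp (fold enrichment 22.7) in wt+TNFα. Both peaks were thus wider in wt+TNFα, that of Tnfsf13 by more.

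Ligand genes with H3K27me3 were Tnfsf11, Tnfsf8 and Cd70, and the marked share of their promoters was equal or larger in wt+TNFα. Tnfsf11 encodes RANKL, which binds Tnfrsf11a and governs bone resorption and, in the gut, the formation of M cells. It had a peak of 1538 bp in wt (fold enrichment 2.51, −log10 q 2.61) and of 2854 bp in wt+TNFα (3.11 and 7.65), and its covered promoter share was 76.9% and 100%. Tnfsf8, the CD30 ligand, had peaks of 1906 bp (2.10 and 0.698) and 5200 bp (1.82 and 1.10), covering 70.2% and 100% of the promoter. Cd70, the ligand of the costimulatory receptor Cd27 of lymphocytes, lay within an H3K27me3 peak of 19378 bp (fold enrichment 2.76) in wt and 19737 bp (2.91) in wt+TNFα, which covered the whole gene in each. The Tnfsf8 peaks were the weakest of these by −log10 q, and equal numbers of peaks in both lists left the wt peak alone.

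No peak of either mark lay at the promoters of 9 ligands in both conditions, namely Fasl, Lta, Tnfsf4, Tnfsf10, Tnfsf12, Tnfsf13b, Tnfsf14, Tnfsf18 and Tnfsfm13. Of these, Tnfsf10 encodes TRAIL, which triggers apoptosis through Tnfrsf10b. The nearest H3K4me3 peak was 133152 bp from Tnfsf10 in wt and 132916 bp in wt+TNFα, and the nearest H3K27me3 peak 5361 bp and 12339 bp. The 250 bases before the RefSeq start of Tnfsf10 (chr3:27316827-27317076 of GRCm38.p6, plus strand), which reach into the annotated gene, hold 6 CpG. They are shown as an unmarked promoter.
Tnfsf10: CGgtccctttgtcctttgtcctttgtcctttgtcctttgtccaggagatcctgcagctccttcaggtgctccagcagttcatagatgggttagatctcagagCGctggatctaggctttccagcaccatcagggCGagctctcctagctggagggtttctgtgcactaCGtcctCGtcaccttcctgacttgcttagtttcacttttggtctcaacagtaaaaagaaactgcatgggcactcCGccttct
Peaks entered the bodies of a few of these genes outside the promoter windows. H3K4me3 covered 15.7% of Tnfsfm13 in wt and 21.2% in wt+TNFα, and 0% and 1.01% of Tnfsf12. In both genes this was the promoter peak of Tnfsf13 described above, and not a separate peak. H3K27me3 peaks covered 25% of Tnfsf14, which encodes LIGHT, in wt and 21.3% in wt+TNFα. They covered 0% and 14.7% of Tnfsf4, the OX40 ligand, and 0% and 1.61% of Tnfsf13b, which encodes the B cell factor BAFF. The starts of Tnfsf12 and of the read-through gene Tnfsfm13 lie close together, so the windows of these 2 genes share bases and are not independent.

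Tnfrsf1a, Tnfrsf1b, Ltbr, Fas, Tnfrsf10b and Tnfrsf14, receptors of TNF, the lymphotoxins and other ligands, carried H3K4me3 in both conditions. Tnfrsf1a, the death-domain receptor of TNF, had a peak of 1797 bp in wt and 1748 bp in wt+TNFα, with a fold enrichment of 25 and 28.4. For Tnfrsf1b, the second TNF receptor, the widths were 1047 bp and 1398 bp and the fold enrichments 23.4 and 22.6. Both thus stayed near the middle of their lists, at the 50.9th and 53.7th percentile for Tnfrsf1a and the 46.6th and 39.2nd for Tnfrsf1b. The lymphotoxin β receptor Ltbr had fold enrichments of 23.2 and 25.8 and widths of 1632 bp and 1721 bp. Fas, the receptor of Fas ligand, had 14.8 and 12.7, with widths of 1238 bp and 1299 bp. Tnfrsf10b, the TRAIL death receptor, had 14.7 and 19.3, with widths of 1114 bp and 1330 bp. Tnfrsf14, which binds LIGHT, had 13.2 and 18.5, with widths of 1216 bp and 1520 bp. Among all genes with a peak in both conditions, the width ratio was at the 92.7th percentile for Tnfrsf1b (1.34) and at the 88.5th for Tnfrsf14 (1.25), and the fold-enrichment ratio of Tnfrsf14 (1.41) was at the 81.3rd. Fas, Tnfrsf10b and Tnfrsf14 thus lay lower in their lists, between the 19.9th and the 32.2nd percentile.

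Receptors with the highest enrichment in the family were Tnfrsf11a and Tnfrsf21. Tnfrsf11a, which encodes RANK, had a wide peak of 3630 bp (fold enrichment 44.1) in wt and 3521 bp (41.8) in wt+TNFα, at the 97.1st and 95.8th percentile of width. Tnfrsf21, which encodes death receptor 6, had a peak of 1557 bp (41.5) and 1657 bp (43.5). Its upstream bases (chr17:43016305-43016554 of GRCm38.p6, plus strand) are shown as those of the member with the highest CpG ratio (0.672), with 160 of the 250 bases under the wt peak and 167 under the wt+TNFα peak.
Tnfrsf21: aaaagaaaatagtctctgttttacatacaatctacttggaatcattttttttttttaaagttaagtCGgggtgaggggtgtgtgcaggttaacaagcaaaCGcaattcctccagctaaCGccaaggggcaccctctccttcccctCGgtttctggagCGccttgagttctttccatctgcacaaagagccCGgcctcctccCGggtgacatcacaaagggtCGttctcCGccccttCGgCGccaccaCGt
These bases hold 12 CpG. Tnfrsf12a, the receptor of the ligand TWEAK encoded by Tnfsf12, came next after Tnf in wt+TNFα, with a fold enrichment of 30.0 and a width of 1732 bp, against 22.2 and 1535 bp in wt. Its percentile was 43.6 in wt and 57.8 in wt+TNFα.

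Receptors that act as decoys differed in their peak calls. Tnfrsf11b (ENSMUSG00000063727.3, chr15:54250619-54278484, minus strand) encodes osteoprotegerin, a secreted receptor that binds RANKL. It had no H3K4me3 peak in wt, the nearest being 292759 bp from the gene, and one of 537 bp over its start in wt+TNFα, enriched 6.91-fold, with a −log10 q of 23.3, at the 6.57th percentile. Tnfrsf22 (ENSMUSG00000010751.15, chr7:143634806-143649661, minus strand), a TRAIL-binding receptor without a death domain, had none in wt, the nearest being 34404 bp from the gene. In wt+TNFα a peak of 604 bp, enriched 12.3-fold, with a −log10 q of 49.8, covered 2 of its 3 starts, at the 19.0th percentile. Tnfrsf23, its neighbor and a receptor of like function, had the weakest peak of the family in both conditions, with a fold enrichment of 5.83 and 5.81 and a width of 528 bp and 366 bp, and Tnfrsf26, the other gene of the cluster, had none. The calls at Tnfrsf11b and Tnfrsf22 were, like that at Tnfsf15, lost in 2 of 7 settings, the stronger peaks of each list and equal covered length. The other settings changed promoter size, starts or overlap, or dropped few peaks. They could hardly change a call at a peak over the start, so the count of settings does not measure how stable these calls are. No H3K27me3 peak lay at any of these promoters. The total reads of H3K4me3 were higher in wt+TNFα, and the part of depth in these weak peaks was not tested.

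Tnfrsf9, which encodes the T cell costimulatory receptor 4-1BB, was the one member with both marks in its promoter windows, at different starts. H3K4me3 covered the first of its 8 starts, with a peak of 1300 bp (fold enrichment 22.9) in wt and 1492 bp (25.7) in wt+TNFα. H3K27me3 lay over downstream starts in 1 peak of 35106 bp (3.05) in wt, from 10.0 to 45.1 kb downstream of the 5′ end of the gene. In wt+TNFα the same span held 2 peaks, one of 12047 bp from 13.2 to 25.3 kb (2.99) and one from 26.8 to 42.2 kb (2.97). None of the bases under the H3K4me3 peak lay under H3K27me3 in either condition. H3K27me3 covered 56.4% of the promoter bases in wt and 30.3% in wt+TNFα, a loss of 2586 bp and the only loss of promoter H3K27me3 in the family. Over the whole gene it covered 68.2% in wt and 53.2% in wt+TNFα. Part of that loss fell at the start at 150927999 on chromosome 4, whose 250 upstream bases (chr4:150927749-150927998 of GRCm38.p6, plus strand) lay under the wt peak in full and under the wt+TNFα peak for 205 bases.
Tnfrsf9: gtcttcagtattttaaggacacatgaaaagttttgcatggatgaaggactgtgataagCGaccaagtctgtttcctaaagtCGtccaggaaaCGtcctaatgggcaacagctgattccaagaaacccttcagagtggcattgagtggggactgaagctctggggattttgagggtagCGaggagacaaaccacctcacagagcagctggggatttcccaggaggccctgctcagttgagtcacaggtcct
These bases hold 4 CpG and no H3K4me3 peak overlapped them.

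**Figure D3:**
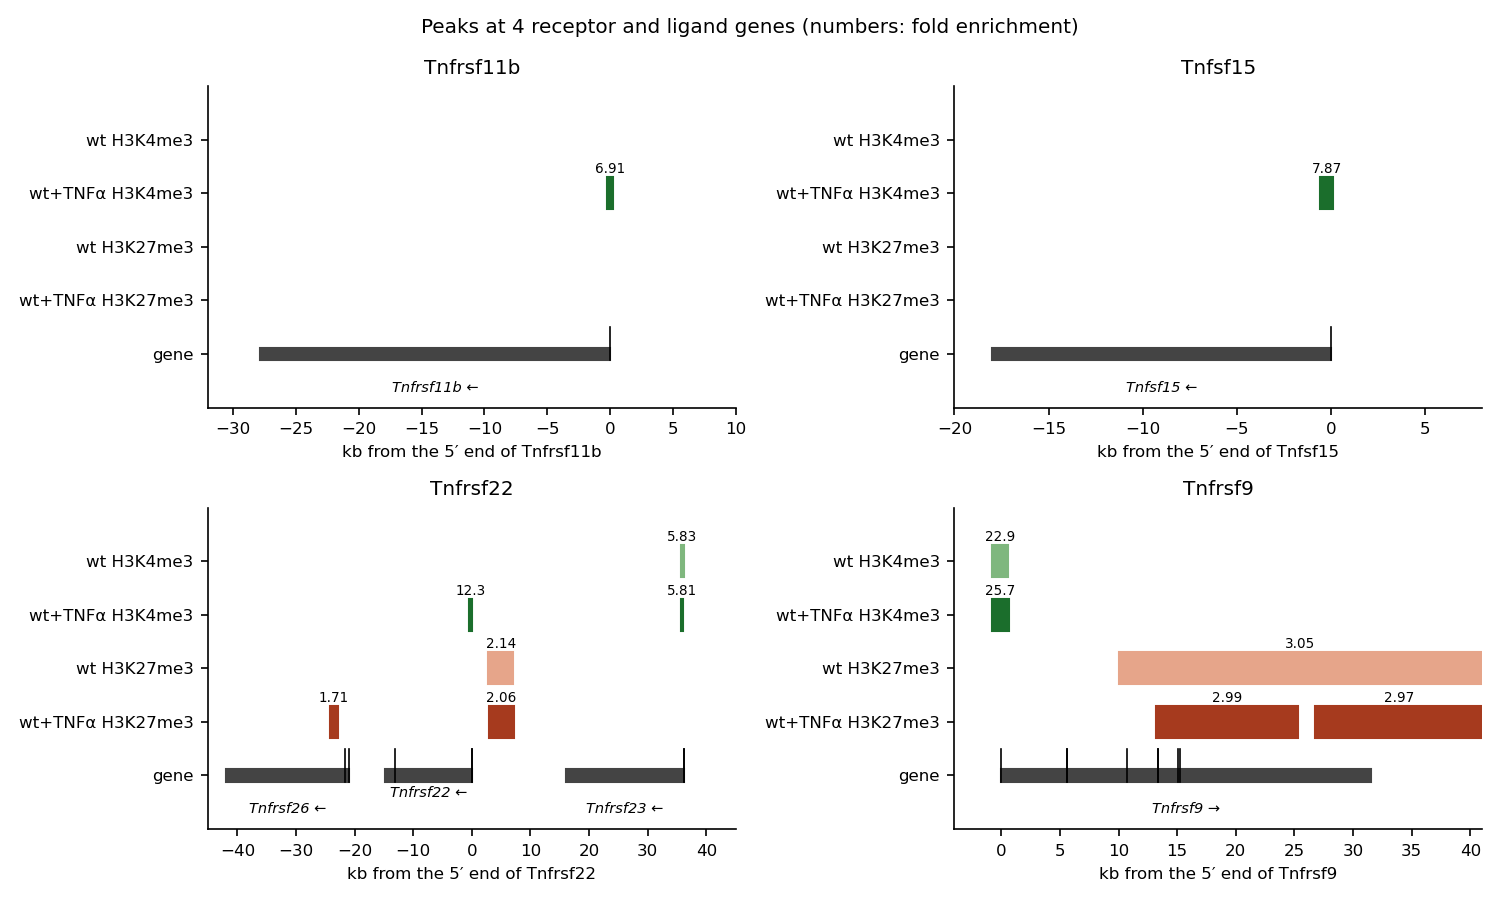
Peaks of each list at Tnfrsf11b, Tnfsf15, Tnfrsf22 (with Tnfrsf26 and Tnfrsf23) and Tnfrsf9, by distance in kb from the 5′ end of the gene in the title, with fold enrichment above each peak, genes in grey with arrows for their strand, ticks at transcript starts, and peaks cut at the edge of a plot. The first 3 had an H3K4me3 peak at the start in wt+TNFα alone, and Tnfrsf9 had H3K4me3 at its first start and H3K27me3 over its downstream starts.

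Receptors marked by H3K27me3 alone were Cd40, Tnfrsf13b, Tnfrsf13c, Tnfrsf19 and Tnfrsf25. Tnfrsf13c encodes the BAFF receptor of B cells and lay in full within a peak of 16847 bp in wt (fold enrichment 3.48, −log10 q 6.84) and 17530 bp in wt+TNFα (3.77 and 12.9), at the 97.4th and 99.0th percentile. Its upstream bases (chr15:82224381-82224630 of GRCm38.p6, minus strand) are shown as a promoter covered in full by H3K27me3 in both conditions, with 10 CpG.
Tnfrsf13c: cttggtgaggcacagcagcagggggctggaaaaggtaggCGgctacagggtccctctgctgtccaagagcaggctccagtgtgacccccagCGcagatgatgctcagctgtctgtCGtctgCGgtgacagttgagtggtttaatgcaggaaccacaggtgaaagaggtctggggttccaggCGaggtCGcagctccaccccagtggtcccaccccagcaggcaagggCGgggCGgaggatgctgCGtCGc
Cd40, a receptor of B cells and antigen-presenting cells, had a peak of 13725 bp (2.21 and 1.07) in wt and of 51262 bp (2.37 and 3.27) in wt+TNFα, and 59.1% and 100% of its promoter bases were covered. Tnfrsf25, the receptor of TL1A, had 2 peaks of 1994 bp (fold enrichment 2.52) and 7684 bp (2.84) in wt and 1 peak of 11729 bp (3.80) in wt+TNFα, with 62.7% and 100% covered. Tnfrsf13b, which encodes TACI, a receptor found on B cells, had 65.3% and 90.7% covered, as a second peak of 3164 bp (1.85) in wt+TNFα reached its 3 upstream starts. Tnfrsf19, a Wnt-responsive receptor known in stem cells, had 63.8% and 67.1% covered, with a peak of 5358 bp (2.95) in wt and 47090 bp (2.47) in wt+TNFα at its upstream starts. A second peak at starts farther downstream differed less, with 5778 bp (2.67) in wt and 6996 bp (2.61) in wt+TNFα. These receptors thus had a covered share in wt+TNFα equal to or above that in wt.

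The remaining receptors, Cd27, Tnfrsf4, Tnfrsf8, Tnfrsf17, Tnfrsf18 and Tnfrsf26, had neither mark at their promoters in either condition. Most are costimulatory receptors of lymphocytes, such as Cd27, Tnfrsf4 (OX40), Tnfrsf8 (CD30) and Tnfrsf18 (GITR), and Tnfrsf17 encodes BCMA of plasma cells. The nearest H3K4me3 peaks belonged to promoters of neighboring genes, at 334 bp from Cd27 and 2026 bp from Tnfrsf17 in wt+TNFα and 1629 bp from Tnfrsf18 in wt, outside the windows of these members. An H3K27me3 peak entered Tnfrsf26 in wt+TNFα, covering 6.87% of the gene, against 0% in wt. Of the 19 members with neither mark in wt, 0 had H3K27me3 in wt+TNFα, against 15.4% of 6505 genes. With promoters of 2000 bp, Tnfrsf26 and Tnfsf13b, both among these 19, had H3K27me3 in wt+TNFα alone (7.50% of all genes).

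Among members with a peak in both conditions, as among all genes, most H3K4me3 peaks were wider in wt+TNFα. The peak was wider in wt+TNFα at 11 of 14 members, against 75.7% of 10606 genes, and had a higher fold enrichment at 8 of 14, against 60.5%. More of the promoter was covered at 13 of 14, against 70.7%. The upstream edge of the peak lay farther out in wt+TNFα at 13 of 14 members, and the downstream edge at 10 of 14. Over the 14, the upstream shift had a median of 62.0 bp and a range from -19 to 447 bp, and the downstream shift a median of 116 bp and a range from -143 to 1523 bp. Edges were not measured at all genes, most of which had a wider peak in wt+TNFα, so these counts describe the members and are not a result about the family. Tnf stood at the upper end of both ranges, Tnfsf13 followed with 350 bp and 389 bp, and Tnfrsf23 was the one member with both edges drawn in. For H3K27me3, the peak was wider in wt+TNFα at 8 of 9 members, against 85.7% of 4372 genes, and its fold enrichment was higher at 6 of 9, against 52.5%. More of the promoter was covered at 6 of 9, against 52.9%, and less at Tnfrsf9.

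**Figure D4:**
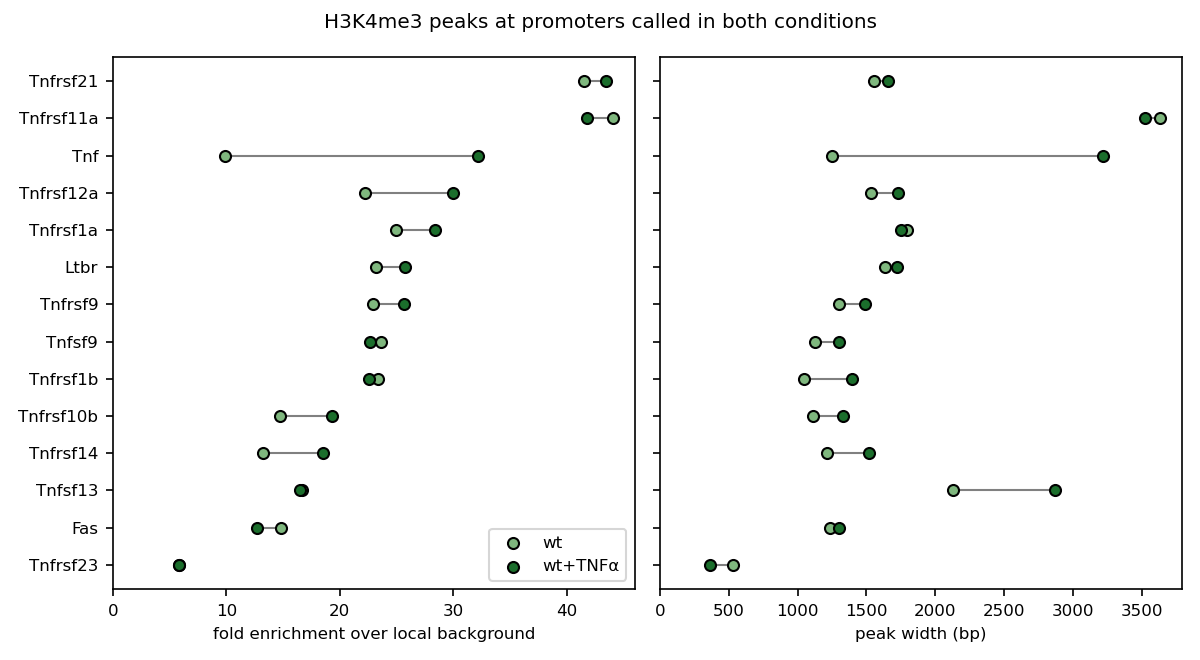
Fold enrichment (left) and width in bp (right) of the H3K4me3 peak at the 14 members with a peak in both conditions, wt in light green and wt+TNFα in dark green, 1 library each. Tnf had the longest lines in both panels, with 9.85 and 32.2 for fold enrichment and 1247 bp and 3217 bp for width.

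Counting bases in place of calls, bases of H3K4me3 unique to wt+TNFα were found at the promoters of 17 of 41 members (41.5%, against 42.0% of all genes). At least 200 bp of such bases were found at 6, namely Ltb, Tnf, Tnfrsf11b, Tnfrsf22, Tnfsf13 and Tnfsf15 (14.6%, against 10.9%). Bases of H3K4me3 unique to wt were found at 2, Ltbr with 43 bp and Tnfrsf23 with 162 bp (4.88%, against 21.4%), and 0 had 200 bp or more of them (2.49% of all genes). Bases of H3K27me3 unique to wt+TNFα lay at 6 members (14.6%, against 18.2%), 5 of them with at least 200 bp (12.2%, against 16.1%). Bases unique to wt lay at 1, Tnfrsf9 (2.44%, against 5.50%, and 4.01% with at least 200 bp). Shares of the family were thus near those of all genes for gains of either mark, counted over genes with and without a peak. Fewer members than genes had H3K4me3 in wt+TNFα (43.9% against 52.5%). The losses concerned 3 members in all, a lower share than among all genes for H3K4me3 (4.88% against 21.4%) and H3K27me3 (2.44% against 5.50%).

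Of 25 known pairs of a ligand and its receptor, both partners had H3K4me3 in 3 pairs in wt and 4 in wt+TNFα. The receptor alone had it in 10 and 11 pairs, the ligand alone in 2 and 3, and neither in 10 and 7. These counts are a description, since partners were not compared with other pairs of genes. Pairs with both partners in wt were Tnf with Tnfrsf1a, Tnf with Tnfrsf1b, and Tnfsf9 with Tnfrsf9, and Ltb with Ltbr was added in wt+TNFα, through the call at Ltb made in 4 of 7 settings. Receptors with H3K4me3 whose ligand had no H3K4me3 in either condition included Fas, Tnfrsf10b, Tnfrsf11a, Tnfrsf12a and Tnfrsf14. In the RANKL system, the ligand Tnfsf11 had H3K27me3 in both conditions, the receptor Tnfrsf11a H3K4me3 in both, and the decoy Tnfrsf11b H3K4me3 in wt+TNFα alone. In the TL1A system, the ligand Tnfsf15 had H3K4me3 in wt+TNFα alone and its receptor Tnfrsf25 had H3K27me3 in both.

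Many members lie side by side. In 9 groups of members less than 100 kb apart, with 23 members in all, the members had the same state in 2 groups in wt and in 2 in wt+TNFα. These were Tnfsf4 with Tnfsf18 and Tnfrsf4 with Tnfrsf18, all with neither mark. Neighbors were not compared with other genes, so the counts describe these groups alone. On chromosome 17, Tnfsf9, Cd70 and Tnfsf14 lie within 88.9 kb and had H3K4me3, H3K27me3 and neither mark at their promoters in both conditions. On chromosome 4, Tnfsf15 and Tnfsf8 lie within 134 kb, and in wt+TNFα the former had H3K4me3 and the latter H3K27me3. On chromosome 6, Ltbr and Tnfrsf1a had H3K4me3 and Cd27 neither mark.

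Genes of the signaling pathway below the receptors, listed together with the ligand-shedding protease Adam17, nearly all carried H3K4me3. Of 27 such genes, 26 could be measured on the autosomes, and 25 had an H3K4me3 peak at the promoter in both conditions, against 51.8% of all genes in wt and 52.5% in wt+TNFα. The exception was Traf1, which had H3K27me3 in both, with 17.7% of its promoter bases covered in wt and 41.8% in wt+TNFα. No peak call in this list differed between the conditions for either mark. Among all genes such differences were few for H3K4me3 (1.50% in wt+TNFα alone and 0.741% in wt alone) and for H3K27me3 (6.48% and 1.28%), so the absence of any in a list of this size is not a result about these genes. The highest peak at Tnfaip3, which encodes the deubiquitinase A20 that restrains NF-κB signaling, was 2366 bp wide (enriched 31.1-fold) in wt and 9484 bp wide (51.3-fold) in wt+TNFα. That gene was singled out after its values were seen.

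Promoter sequence, which the choice of members did not use, was compared between the states of the mark. The CpG ratio, observed over expected within the promoter windows, had a median of 0.339 for the 14 members with H3K4me3 in both conditions, against 0.456 for the 10606 genes in that state. It was 0.300 for the 4 members with H3K4me3 in wt+TNFα alone (0.385 for 311 genes), 0.303 for the 8 with H3K27me3 alone (0.314 for 4317 genes), and 0.268 for the 15 with neither mark (0.164 for 5392 genes). Members with H3K4me3 in both conditions ranged from 0.190 at Tnfsf13 to 0.672 at Tnfrsf21, and Tnf, at 0.261, was in the lower part of that range. Members with H3K4me3 thus had a lower median than all such genes, and members with neither mark a higher one. GC content had medians of 53.9%, 48.0%, 53.6% and 49.4% in the same order, against 50.4%, 51.3%, 50.8% and 42.6% for all genes.

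**Figure D5:**
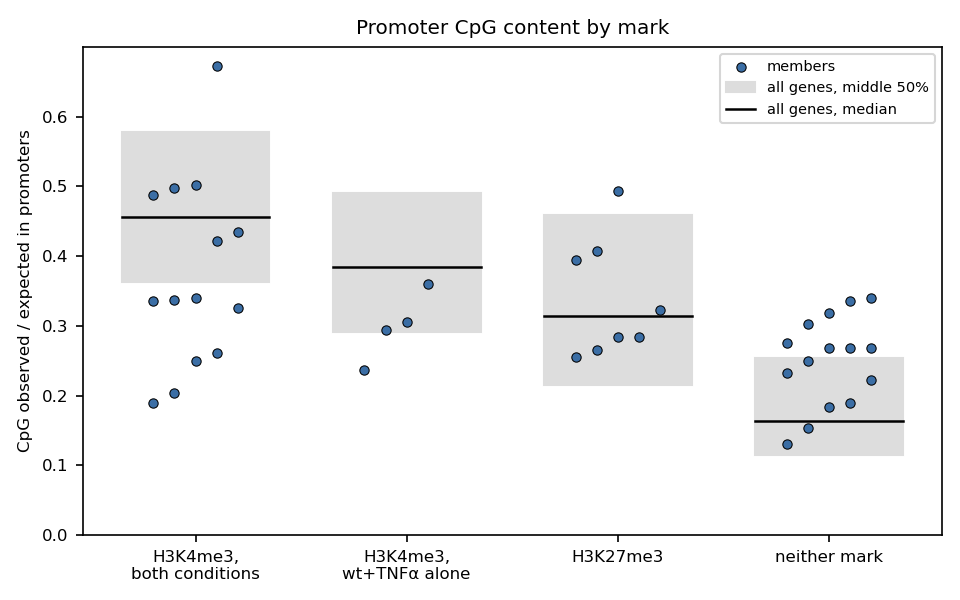
CpG observed over expected in the promoter windows of the members (points), by mark, with the median (line) and the middle 50% (grey box) of all autosomal protein-coding genes in the same state. The medians of the members were 0.339, 0.300, 0.303 and 0.268 from left to right, and those of all genes 0.456, 0.385, 0.314 and 0.164.

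RefSeq sequences of the 250 bases before the start were available for 32 of 41 members, as 36 promoters, and were searched on both strands for GGG and TTTCC separated by any 2 bases, the letters of an NF-κB site. The letters were found in 464 of 32851 promoters (1.41%) and in 3 of the 36 of the family. They were GGAAAGTCCC at -87 from the start of Ltb, GGAAAAGCCC at -218 from that of Tnfrsf25, and GGGGATTTCC at -43 from the downstream start of Tnfrsf9 shown above. Ltb had H3K4me3 in wt+TNFα alone, Tnfrsf25 had H3K27me3 in both conditions, and Tnfrsf9 had both marks. A match describes the letters of the window and is not evidence of binding. The 9 members without a sequence were Cd40, Cd70, Tnfrsf10b, Tnfrsf11b, Tnfrsf22, Tnfrsf26, Tnfsf12, Tnfsf4 and Tnfsf9.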

How the data were processed

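H3K4me3 and H3K27me3 peak lists of wt and wt+TNFα organoids were used, with 1 library per condition and mark, and the input libraries and the reads were not analysed here. According to the methods and the processing notes, the authors aligned reads to GRCm38/mm10 with BWA (2.2), removed duplicates with SAMtools (1.11), and called peaks against the input with MACS2 (2.1.0; the reporting summary names another version), as narrow peaks for H3K4me3 and broad peaks for H3K27me3. In the deposited lists the fold enrichment is a ratio of ChIP signal to local background, the q-value of each peak is deposited as −log10, as is its p-value, and the authors' peak score is a whole number that was not used for results. The lowest −log10 q was 7.00 and 6.95 for H3K4me3 and 0.302 and 0.747 for H3K27me3 in wt and wt+TNFα. The file names of all lists but that of wt+TNFα H3K27me3 mention a spike-in, which the text of the paper does not. Fold enrichments were therefore placed by percentile within a list, and ratios between lists were read only beside those of all genes.

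Groups came from the sample labels. Genes were taken from GENCODE M21, promoters reached 1000 bp to either side of all transcript starts, and an overlap of 1 bp counted as a peak. Bases unique to one condition were those left after bedtools subtract (2.31.1). Calculations used Python 3.11.15 and numpy 2.4.6, and plots matplotlib 3.10.9. There were no tests, since each group held 1 library. Counts of members were set beside the share of all 20780 autosomal protein-coding genes called in the same way. Members and lists were chosen with earlier results of these data known. Values of each library are given for members whose call differed, members with both marks, the 3 with the highest H3K4me3 enrichment, the 3 with the widest H3K27me3 peak, and Tnf, its receptors and other ligands and receptors picked by name for their roles. Alternatives were promoters of 500 or 2000 bp on each side, 1 start per gene, overlaps of 200 bp, stronger or equal sets of peaks, and subtraction of whole peaks. On simulated peak lists, run on 20780 genes, the steps recovered 800 of 800 planted genes and called 0 others. The planted genes had 1 promoter window each, apart from those of other genes. This checks the overlap arithmetic alone and not peak calls or shared windows.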

Additional observations from a re-analysis of the deposited data

How the results depend on the processing

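Of 82 alternative values for 13 counts of members, 63 were within 1.5 times the reported count and 19 were not. With the stronger peaks of each list alone (−log10 q above its median), H3K4me3 was at 4 members in wt (31.4% of all genes) and 6 in wt+TNFα (32.3%), both marks at 0 in each condition (0.987% and 1.33%), and H3K4me3 in wt+TNFα alone at 2 (3.26%; Tnf and Tnfrsf12a, with none of the 4 reported). With 1 start per gene, both marks were at 0 in each condition (3.82% and 4.60% of all genes) and H3K27me3 in wt+TNFα alone at 1 (Tnfrsf13b, against 6.15%). With equal covered length on the autosomes, H3K4me3 was in wt+TNFα alone at 1 (Ltb, against 0.231%) and in wt alone at 2 (Fas and Tnfrsf23, against 4.23%), and H3K27me3 in wt alone at 1 (Tnfsf8, against 5.16%). With equal numbers of peaks, H3K4me3 was in wt alone at 1 (Tnfrsf23, against 0.929%) and H3K27me3 in wt alone at 1 (Tnfsf8, against 2.01%). H3K27me3 in wt+TNFα alone was at 2 with promoters of 2000 bp (Tnfrsf26 and Tnfsf13b, against 7.50%) and at 2 with −log10 q of at least 2 (Cd40 and Tnfrsf13b, against 6.81%). With whole peaks subtracted, H3K4me3 was gained at 3 members (Tnfrsf11b, Tnfrsf22 and Tnfsf15, against 1.88%), and H3K27me3 was gained at 0 (7.07%) and lost at 0 (1.54%). With 200 bp of unique bases, H3K4me3 was gained at 6 (10.9%). Apart from the effect of each filter on the lists themselves, the cause was not tested. With 1 library per condition and mark, no error can be given and no replicate could be left out. Differences of depth (of H3K4me3 and input), sex or animal of origin and treatment cannot be told apart. No paired analysis was possible because each group held 1 library and no result came from a test.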
